A study of Homo sapiens with 24 samples.

Results

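HepG2, an established line from a human liver tumour that keeps many functions of hepatocytes, was used to compare gene expression between ABBV-075 and ABBV-744, each given at 50 nM without interferon gamma (IFNg). The comparison was defined by the sample titles and held 6 of the 24 RNA sequencing libraries, 3 for each compound. The other groups were the solvent DMSO, ABBV-744 at 500 nM, IFNg, and IFNg with ABBV-075 at 50 nM or with ABBV-744 at 50 or 500 nM, again with 3 libraries each. The study gives a treatment time for ABBV-075 only, so it is not known whether both compounds were given for the same time. All libraries came from 1 cell line, and the labels do not say whether the 3 libraries of a group were separate cultures, so p-values measure only the spread between these libraries. Because RNA was taken from whole cultures, fewer cells that express a gene and less RNA per cell cannot be told apart.

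Both compounds bind the bromodomains of the BET proteins, among them BRD2 and BRD3, which read acetylated histones and help to recruit the elongation factor P-TEFb to active genes. ABBV-075 is a pan-BET inhibitor that occupies both bromodomains of each protein, and ABBV-744 is selective for the second of these domains, BD2. HEXIM1, an inhibitor of P-TEFb, is used as a marker of BET inhibition because its RNA rises when BET proteins are displaced. NR1H4 encodes the bile acid receptor FXR, a nuclear receptor that binds AGGTCA-like half-sites and controls bile acid synthesis, conjugation and export in hepatocytes.

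The promoter sequences of 4 genes that differed between the compounds are shown: NR1H4 and its classical target SLC51B, both lower with ABBV-075, and HEXIM1 and EFR3B, both higher. They are the 250 bases before the transcription start listed by RefSeq (build GRCh38.p14), all on the + strand, at chr12:100503110-100503359 for NR1H4, chr15:65045137-65045386 for SLC51B, chr17:45148225-45148474 for HEXIM1 and chr2:25041826-25042075 for EFR3B, of which the first of 2 listed starts is shown. The start listed for NR1H4 lies inside the annotated gene, so that its sequence is that of an internal start and not of the most upstream one. Capitals mark matches on either strand to the TATA box (TATAAA), the CCAAT box (CCAAT), the GC box (GGGCGG) and the nuclear receptor half-site (AGGTCA).
NR1H4: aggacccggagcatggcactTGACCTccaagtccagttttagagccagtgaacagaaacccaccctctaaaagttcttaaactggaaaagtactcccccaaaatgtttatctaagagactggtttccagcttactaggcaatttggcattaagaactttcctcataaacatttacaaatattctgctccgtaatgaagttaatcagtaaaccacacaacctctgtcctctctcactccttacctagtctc
SLC51B: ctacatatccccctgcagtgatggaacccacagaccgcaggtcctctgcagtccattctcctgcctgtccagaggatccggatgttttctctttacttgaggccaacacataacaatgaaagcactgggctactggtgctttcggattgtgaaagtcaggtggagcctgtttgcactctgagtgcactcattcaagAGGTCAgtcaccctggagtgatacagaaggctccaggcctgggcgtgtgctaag
HEXIM1: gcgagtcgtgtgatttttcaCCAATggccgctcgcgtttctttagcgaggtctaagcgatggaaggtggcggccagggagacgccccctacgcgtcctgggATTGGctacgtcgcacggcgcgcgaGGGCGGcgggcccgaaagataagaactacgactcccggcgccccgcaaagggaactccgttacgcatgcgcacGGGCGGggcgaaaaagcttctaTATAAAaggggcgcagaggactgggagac
EFR3B: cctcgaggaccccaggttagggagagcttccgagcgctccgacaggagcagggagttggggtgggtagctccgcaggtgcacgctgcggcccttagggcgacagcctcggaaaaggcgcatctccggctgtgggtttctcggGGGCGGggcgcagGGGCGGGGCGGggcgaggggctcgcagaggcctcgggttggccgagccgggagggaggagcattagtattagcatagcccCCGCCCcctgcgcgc
The half-site was found once in the NR1H4 sequence and once in that of SLC51B, from -54 to -49 relative to the start, and in 12.1% of 35116 promoters of this length. The HEXIM1 sequence held a TATA box from -29 to -24, which 10.7% of promoters had, besides 2 CCAAT boxes (32.0% of promoters) and 2 GC boxes (42.6%). EFR3B had 4 GC boxes, of which 2 shared a base. GC content of these sequences was 42.0% for NR1H4, 52.8% for SLC51B, 62.4% for HEXIM1 and 71.2% for EFR3B, with a median of 58.0% over all promoters.

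The 6 libraries held between 25045625 and 27760009 reads, of which 3174722 to 4082506 were counted on genes. All 10 hepatocyte markers were detected, with a summed level of 22352 to 26913 CPM (counts scaled to the number of counted reads) with ABBV-075 and 20450 to 23115 CPM with ABBV-744. Of 11 markers of blood, endothelial and fibroblast cells, 6 (PTPRC, CD3E, MS4A1, KDR, COL1A2 and COL3A1) were at 0 in all 6 libraries, and the list summed to 19.5 to 29.4 CPM with ABBV-075 and 35.1 to 39.6 CPM with ABBV-744, nearly all of it from CD68 and ACTA2. A difference in GC trend ran along with the comparison, and its cause was not tested. Spearman's correlation across genes between the deviation of a library and the GC content of the transcript was 0.58, 0.70 and 0.55 in the 3 ABBV-744 libraries, and -0.56, -0.36 and 0.20 in the 3 ABBV-075 libraries, of which replicate 3 stood apart from replicates 1 and 2. Reads that aligned to several places made up 66.2% to 69.4% of the ABBV-744 libraries and 56% to 67.4% of the ABBV-075 libraries, and their part in the results was not tested. Counts and many values are therefore given also from a fit in which the GC trend of every library was removed.

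Of 10992 genes tested, 2352 (21.4%) were higher with ABBV-075 than with ABBV-744 and 2129 (19.4%) were lower, where a call was an adjusted p (Benjamini-Hochberg) of 0.05 or less in edgeR's quasi-likelihood test. Genes called DE also had a log2 fold change of 1.5 or more in either direction, and they numbered 242 higher (2.2%) and 179 lower (1.63%). The groups did not overlap in 410 of these 421 genes and in 5690 (51.8%) of all genes tested. After the GC correction, 1805 genes (16.4%) were higher and 1965 (17.9%) lower, with 47 higher DE genes (0.428%) and 134 lower ones (1.22%). The balance between directions thus changed from more higher to more lower DE genes, and only 34 of the 242 higher DE genes (14%) were DE genes in both fits, against 102 of the 179 lower ones (57.0%). Median GC content was 37.7% in the higher DE genes, 56.4% in the lower ones and 47.6% in all genes tested.

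**Figure D1:**
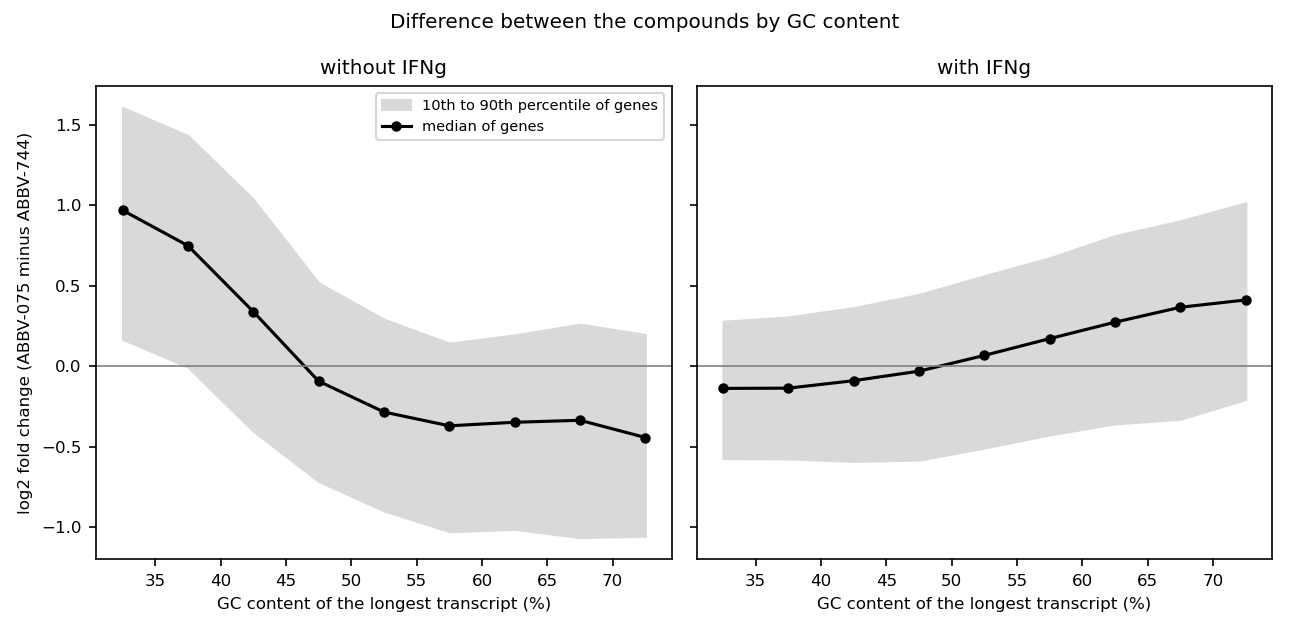
Log2 fold change (ABBV-075 minus ABBV-744, vertical axis) by GC content of the longest transcript in bins of 5 percentage points (horizontal axis), without IFNg (left) and with IFNg (right). Points are medians of the genes in a bin and the grey band runs from their 10th to their 90th percentile. Without IFNg the median went from 0.97 at 30 to 35% GC to -0.35 at 60 to 65%, and with IFNg from -0.14 to 0.27.

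The same contrast in the presence of IFNg used 6 other libraries, in which the GC trend ran the other way: Spearman's correlation across genes between log2 fold change and GC content was -0.62 without IFNg and 0.33 with it. There, 1860 of 11126 genes (16.7%) were higher with ABBV-075 and 1892 (17.0%) lower, with 40 higher DE genes (0.36%) and 126 lower ones (1.13%). Of the 242 higher DE genes found without IFNg, 240 were tested with it, 78 were higher at the adjusted p, 3 were lower, and 13 were DE genes again, which is 5.37% of the 242 and 32.5% of the 40. Of the 179 lower DE genes, 153 were tested, 119 were lower again, none was higher, and 54 were DE genes in both, or 30.2% of the 179 and 42.9% of the 126. The median log2 fold change of the higher set was 1.70 without IFNg, 0.99 after the GC correction and 0.20 with IFNg, and that of the lower set was -1.82, -1.56 and -1.21. Both sets were chosen by their values without IFNg. The medians without IFNg, before and after the GC correction, come from the same libraries and are descriptions only.

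**Figure D2:**
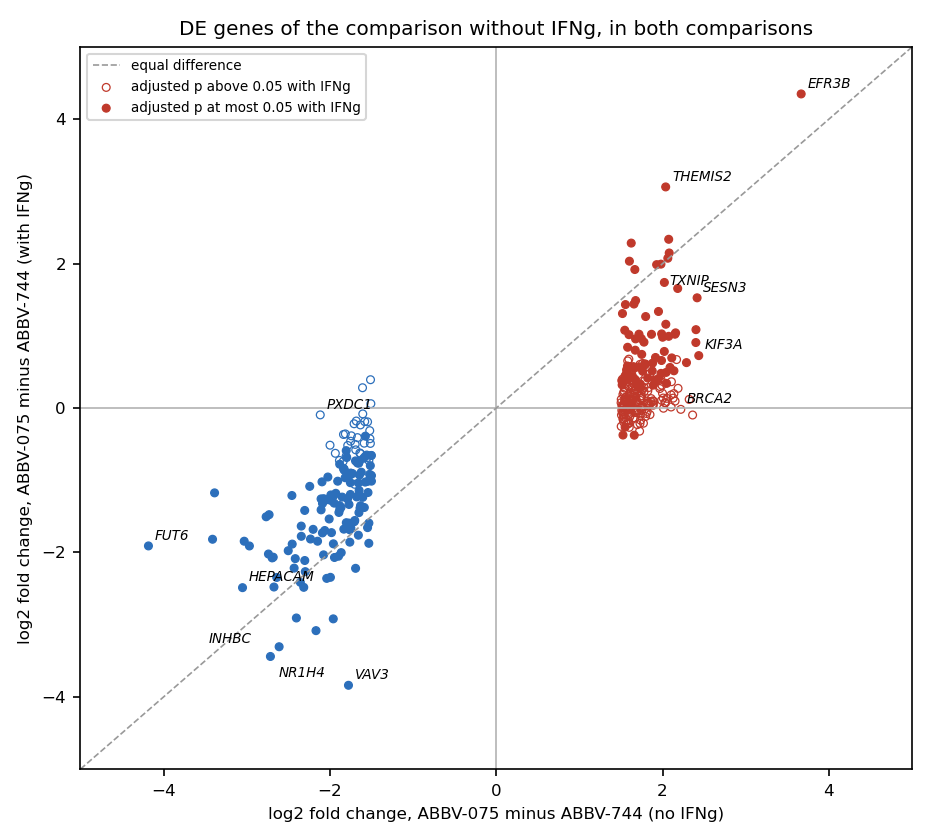
Log2 fold change (ABBV-075 minus ABBV-744) of the DE genes of the comparison without IFNg (horizontal axis) against the same genes' log2 fold change with IFNg (vertical axis), with filled points for genes past an adjusted p of 0.05 with IFNg. Blue genes were lower and red genes higher with ABBV-075. The lower genes mostly stayed below 0 with IFNg, with a median of -1.21, while the higher genes gathered near 0, with a median of 0.20.

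In all 3 fits (without IFNg, without IFNg after GC correction, and with IFNg), 12 genes were higher and 50 lower DE genes. The higher genes included EFR3B, THEMIS2, TXNIP, ARRDC4, SESN3, PLIN5, LFNG, KIAA0513, CNNM4, HTR7P1 and LOC93622. TXNIP and ARRDC4 are related arrestins that restrain glucose uptake, and SESN3 is a stress-induced inhibitor of mTORC1. The 50 lower genes held NR1H4, the bile acid and organic anion carriers ABCC2 and SLC22A7, the steroid sulfotransferase SULT2A1, the gluconeogenic enzyme PCK1, the glycerol-3-phosphate dehydrogenase GPD1, the fatty acid activating enzyme ACSL5, the activin subunits INHBC and INHBE, the glycosyltransferases FUT6 and ST6GAL1, the manganese exporter SLC30A10 and the vitamin E carrier TTPA.

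NR1H4 (FXR), a gene at chr12:100473866-100564414 (GRCh38), was measured at 4.09, 4.87 and 2.40 CPM in the 3 ABBV-075 libraries and at 27.7, 22.9 and 24.7 CPM in the 3 ABBV-744 libraries, with 54.6, 59.1 and 48.3 CPM in DMSO. The 3 groups did not overlap, and the ABBV-744 libraries lay between the others. The difference between the compounds was 6.57-fold (log2 fold change -2.72 ± 0.25 SE, adjusted p = 0.000151), and the log2 fold change against DMSO was -3.83 (adjusted p = 2.63e-07) for ABBV-075 and -1.09 (adjusted p = 6.5e-06) for ABBV-744. The GC correction gave -3.23 between the compounds, and leaving out any 1 library gave -2.90 to -2.49. With IFNg the levels were 5.96, 5.16 and 3.01 CPM with ABBV-075 and 55.6, 52.5 and 54.1 CPM with ABBV-744, beside 59.6, 64.2 and 50.8 CPM with IFNg alone, a difference of 10.9-fold between the compounds (adjusted p = 1.42e-19). The change of the difference with IFNg was -0.74 on the log2 scale (95% interval -1.47 to -0.01, adjusted p = 0.101). The higher dose of ABBV-744, 500 nM, gave 25.2, 24.6 and 23.3 CPM, a dose that has no counterpart for ABBV-075.

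HEXIM1 (chr17:45148475-45152099) moved the other way. Its level was 137, 146 and 152 CPM with ABBV-075 and 67.9, 66.8 and 60.2 CPM with ABBV-744, against 54.0, 56.7 and 50.5 CPM in DMSO. ABBV-075 libraries were all above those of ABBV-744, by 2.21-fold (log2 fold change 1.14 ± 0.12 SE, adjusted p = 0.0003, and 1.27 after GC correction). The rise over DMSO passed the test for ABBV-075 (1.41, adjusted p = 6.81e-06), and for ABBV-744 it was 0.29 with a 95% interval of 0.05 to 0.52 (adjusted p = 0.0816). With IFNg the values were 136, 128 and 140 CPM against 55.3, 38.6 and 54.3 CPM (log2 fold change 1.49, adjusted p = 7.41e-15). At 500 nM, ABBV-744 gave 93.7, 84.1 and 90.1 CPM.

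**Figure D3:**
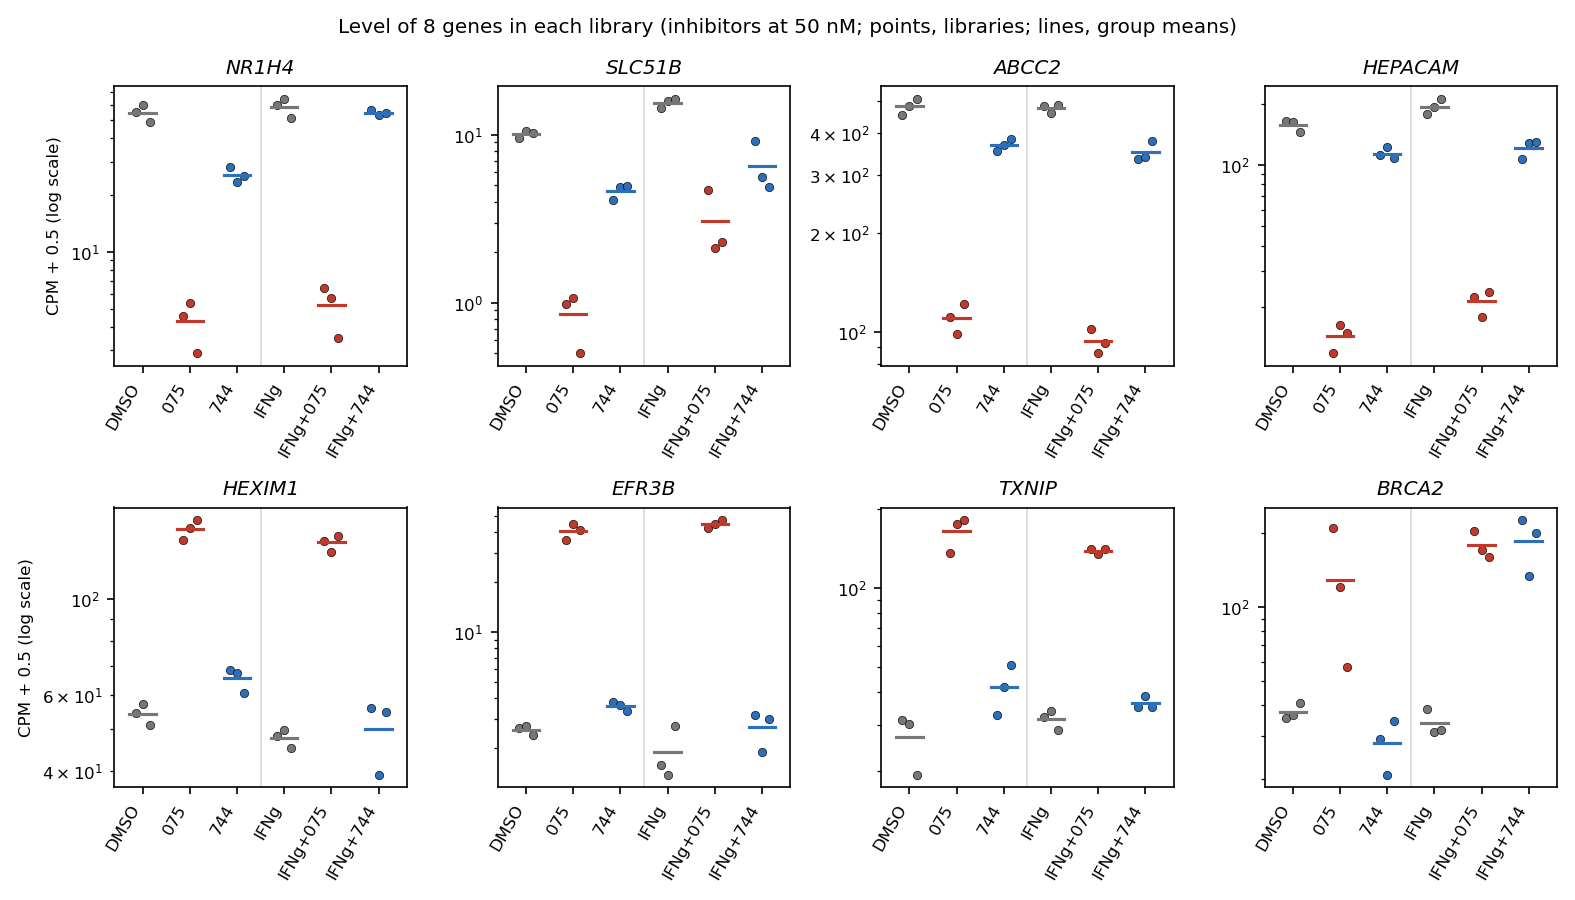
Levels of 8 genes in each library, as CPM + 0.5 on a log scale, for no inhibitor (DMSO or IFNg alone, grey), ABBV-075 at 50 nM (red) and ABBV-744 at 50 nM (blue), without IFNg on the left and with IFNg on the right of each panel. Points are libraries and lines are group means. NR1H4, ABCC2 and HEPACAM lay lower, and HEXIM1, EFR3B and TXNIP higher, with ABBV-075 than with ABBV-744 in both settings, whereas the groups of BRCA2 overlapped with IFNg, and without it the ABBV-075 libraries ranged from 56.7 to 210 CPM.

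Among the targets of the compounds and their partners in P-TEFb, HEXIM1 had the largest increase. BRD2 was at 128, 141 and 168 CPM with ABBV-075 and 139, 152 and 152 CPM with ABBV-744 (95% interval of the log2 fold change -0.32 to 0.26), and BRD3 had an interval of -0.93 to 0.19 (both were named after their values were seen). Neither passed the test, and the sign of BRD2 turned after the GC correction, to 0.24. HEXIM2, the paralogue of HEXIM1, was lower by 1.42 on the log2 scale (adjusted p = 0.00159), with a value of 0.02 under IFNg. CCNT2, a cyclin of P-TEFb, was higher (1.07, adjusted p = 0.00595), a call that was lost with the GC correction (0.28, adjusted p = 0.0576). In all, 3 of 10 tested genes of this list were higher and 1 was lower, near the 21.4% and 19.4% of all genes, and the median was -0.02, or 0.26 after GC correction. In the MYC network, 1 of 10 genes was higher, the repressor MXD1 (0.94, adjusted p = 0.0041), and 1 was lower, MYC itself (-0.51, adjusted p = 0.0108), with 66.1 ± 3.58 against 93.7 ± 7.54 CPM (SD, n = 3 each) and a value of -0.45 (adjusted p = 0.0523) without ABBV-744 replicate 2. After GC correction 5 of the 10 were higher (background 16.4%) and MYC alone was lower (-0.37), and the median of the list went from 0.03 to 0.31. With IFNg 5 of 10 were higher (background 16.7%) and none lower (background 17.0%), with a median of 0.25. MYC did not pass the test there (-0.10, adjusted p = 0.497).

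Most of the bile acid genes tested were lower with ABBV-075. Of the 23 genes of FXR signalling and bile acid metabolism on the list, 12 were tested, 8 of which were lower (66.7%, background 19.4%) and none higher, and their median difference was -0.86 on the log2 scale beside -0.02 for all genes tested. The GC-corrected fit called 7 lower and 1 higher with a median of -0.72, and with IFNg 10 of 14 were lower and 3 higher with a median of -0.74. ABCC2, the canalicular carrier of bilirubin and other conjugates, was at 111, 98.0 and 121 CPM with ABBV-075 and at 354, 369 and 384 CPM with ABBV-744, with no overlap. Its difference of 3.39-fold (log2 fold change -1.76 ± 0.12 SE, adjusted p = 3.11e-05) was nearly the same after the GC correction (-1.84) and with IFNg (-1.86). HSD3B7, an enzyme early in bile acid synthesis, was at 37.3, 39.8 and 47.1 against 151, 178 and 141 CPM (-1.93, adjusted p = 6.66e-05). Its log2 fold change with ABBV-744 against DMSO was -0.01 (adjusted p = 0.956), or -0.25 after GC correction (adjusted p = 0.0313).

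SLC51B, a subunit of the basolateral bile acid exporter, was at 2, 2 and 0 counts with ABBV-075 and at 12, 14 and 14 counts with ABBV-744. With 3 counts per library as the floor it was at least 4.99-fold lower (adjusted p = 0.00195), and with IFNg it was lower by 1.17 (adjusted p = 0.00965). Its partner subunit SLC51A had 0 counts in all 3 ABBV-075 libraries and 3, 5 and 1 with ABBV-744, too few to be tested. CYP8B1, which makes cholic acid, and BAAT, which conjugates bile acids, were not tested either, at 0.08 against 3.51 CPM and 0.44 against 2.16 CPM on average. The classical FXR target NR0B2 (SHP) did not pass the test: 94.4, 99.2 and 125 CPM with ABBV-075 overlapped 84.8, 113 and 92.9 CPM with ABBV-744 (95% interval -0.22 to 0.46), and it was called higher in the GC-corrected fit (0.49) and with IFNg (0.45). NR0B2 was named after its value was seen. ABCB11, the bile salt export pump, had 0 counts in all 6 libraries, which allows up to 3 counts a library by counting error.

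The largest losses were in genes of several kinds. HEPACAM, a cell adhesion gene, was at 11.3, 15.8 and 14.4 CPM with ABBV-075, and at 111, 122 and 107 CPM with ABBV-744, a difference of 8.29-fold (log2 fold change -3.05 ± 0.16 SE, adjusted p = 1.4e-05) that was -2.70 after GC correction and -2.49 with IFNg. FUT6, a fucosyltransferase active on plasma glycoproteins, had 1, 5 and 1 counts against 43, 39 and 36 (-4.18, adjusted p = 0.00024), and it was lower by 1.91 with IFNg. In both genes the groups were far apart. C2orf54 was at 1 count or fewer in each ABBV-075 library and at least 5.59-fold lower, the transcription factor gene NFE2 was at least 8.66-fold lower, and SMTNL2 was at least 7.41-fold lower. EPHA1, an ephrin receptor (-3.03), SECTM1 (-3.01) and the activin subunit INHBE (-2.97) were also among the 10 genes with the largest losses. ABBV-075 replicate 2 held all 5 counts of SECTM1 in that group, so that without it no fold can be given, and without ABBV-075 replicate 1 SECTM1 was at -2.36. FUT6 was at -5.32 without ABBV-075 replicate 2 and at -3.73 without replicate 1. Against DMSO, the 5 of these genes that were above the floor (HEPACAM, FUT6, EPHA1, SECTM1 and INHBE) had log2 fold changes of -4.79 to -3.03 with ABBV-075, all of which passed the test.

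The largest gain was that of EFR3B, a membrane anchor of a phosphatidylinositol kinase. It was at 35.2, 44.1 and 40.8 CPM with ABBV-075 and 3.27, 3.14 and 2.85 CPM with ABBV-744, close to the 2.14, 2.22 and 1.90 CPM of DMSO. The difference was 12.7-fold (log2 fold change 3.67 ± 0.22 SE, adjusted p = 1.46e-05), 3.98 after GC correction and 4.35 with IFNg, and at 500 nM ABBV-744 gave 6.68, 7.04 and 9.76 CPM. FOS, an immediate early gene, had 13, 17 and 11 counts with ABBV-075 and 0, 3 and 2 with ABBV-744, at least 4.06-fold more (adjusted p = 0.00562). SESN3 was at 14, 11.8 and 11.1 CPM against 2.68, 2.20 and 1.90 CPM (2.42, adjusted p = 0.000422), with 1.65 after GC correction and 1.53 with IFNg. TXNIP and ARRDC4, named after their values were seen, were higher by 1.98 and 2.02 without IFNg and by 1.99 and 1.74 with it. TXNIP was at 136, 175 and 181 CPM with ABBV-075 and at 32.1, 41.4 and 50.1 CPM with ABBV-744.

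The other 7 of the 10 largest gains were transcripts of 33.2% to 37.8% GC, a range that also held SESN3 (37.1%). They were KIF3A (2.44), a motor of ciliary transport, the phospholipase PNPLA8 (2.40), the lipid transporter ABCA5 (2.40), the kinase anchor AKAP5 (2.36), the endosomal ZFYVE16 (2.32), USP53 (2.29) and the DNA repair gene BRCA2 (2.22). After GC correction these log2 fold changes fell to between 1.33 and 1.67, and with IFNg they lay between -0.10 and 1.09. BRCA2 was at 210, 120 and 56.7 CPM in the 3 ABBV-075 libraries, so that its level ranged more widely within that group than in the ABBV-744 libraries, at 28.6, 20.4 and 33.9 CPM. With IFNg it was at 203, 171 and 160 CPM against 225, 134 and 199 CPM, with overlap (-0.02, adjusted p = 0.922). KIF3A was at 47.9, 28.9 and 15 CPM against 7.14, 4.39 and 5.39 CPM. Without ABBV-075 replicate 3, the library with the weakest GC trend, the count of higher DE genes was 491, and without replicate 1 it was 103, while without replicates 1 and 2 of ABBV-744, left out in turn, it was 457 and 153.

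Hepatocyte transcription factors were affected unevenly. Of 22 tested, 8 were lower (36.4%, background 19.4%) and 1 was higher (4.55%, background 21.4%), with a median of -0.33. After GC correction 8 were lower (background 17.9%) and 2 higher (9.09%, background 16.4%), with a median of -0.08. The xenobiotic receptor gene NR1I2 (PXR) was lower by 1.26 (adjusted p = 0.00468), and by 2.07 with IFNg. ONECUT2 was the member that was higher without the correction (1.09, adjusted p = 0.00564), with -0.04 under IFNg. The master regulator HNF4A was lower by 0.41 (adjusted p = 0.0207), a call that was lost after GC correction (-0.06, adjusted p = 0.659) and when any of 4 libraries was left out (replicates 1 and 2 of ABBV-075, and 2 and 3 of ABBV-744, with values between -0.44 and -0.36). CEBPA did not pass (95% interval -0.55 to 0.07). Both were named after their values were seen.

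Genes of secreted plasma proteins were mostly lower with ABBV-075. In the acute-phase and carrier list 15 of 21 were lower (71.4%, beside 19.4% of all genes) and 1 higher, with a median of -0.56. In coagulation and fibrinolysis 10 of 13 were lower (76.9%) and none higher, with a median of -0.88, and in complement 8 of 15 were lower (53.3%) and 1 higher, with a median of -0.59. After GC correction these medians were -0.58, -0.65 and -0.39 with 15, 9 and 8 genes lower (background 17.9%), and with IFNg they were -0.32, -0.68 and -0.55 with 10, 10 and 11 genes lower (background 17.0%). ORM1 and ORM2, the orosomucoid pair, fell by 1.02 and 1.01 relative to ABBV-744, and VTN (vitronectin) by 1.10 (adjusted p = 0.000773, 0.00157 and 0.00775). Reads that align to both of the near-identical ORM genes are not counted. The heparin cofactor SERPIND1 (-1.04, adjusted p = 0.000804) was lower, as was CPB2, an inhibitor of fibrinolysis (-1.20, or -1.91 after GC correction). F7, the factor that starts clotting with tissue factor, was lower by 1.59 (adjusted p = 0.00689). C4BPB, a chain of the C4b-binding protein, was at 3.37, 3.44 and 4.2 CPM against 21.4, 17.2 and 17.4 CPM (-2.36, adjusted p = 0.000219), and it had nearly the same difference with IFNg (-2.41).

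Apolipoprotein genes split. Of 11 tested, 6 were lower (54.5%, background 19.4%) and 1 was higher (9.09%, background 21.4%), with a median of -0.53. After GC correction 4 were lower (36.4%, background 17.9%) and 1 higher, with a median of -0.25. With IFNg 3 were lower (27.3%, background 17.0%) and 4 higher (36.4%, background 16.7%), with a median of -0.05. APOB, the structural protein of very low density lipoprotein, was the one that was higher without IFNg. Its level was 13603, 13743 and 9161 CPM against 7231, 4672 and 5761 CPM (1.04, adjusted p = 0.00363), with 0.10 under IFNg. APOA5, an activator of triglyceride hydrolysis, was lower by 1.34 (adjusted p = 0.00057), and APOC3, an inhibitor of it, by 0.93 (adjusted p = 0.00194).

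In lipid and sugar metabolism the calls went both ways. Cholesterol synthesis had 6 of 25 genes higher (24%) and 7 lower (28%) without IFNg, near the 21.4% and 19.4% of all genes. After GC correction 8 were higher and 8 lower (32% each), above the background of 16.4% and 17.9%. With IFNg 10 of 25 were higher (40%, background 16.7%) and 6 lower (background 17.0%), with a median of 0.23. IDI1, an isomerase of the isoprenoid steps, was higher (1.30, adjusted p = 0.000677), with 0.83 after GC correction and 0.25 with IFNg. Of 28 fatty acid and triglyceride genes, 11 were lower (39.3%) and 6 higher (21.4%). GPD1, which makes the glycerol backbone of triglycerides, was at 8.43, 11.5 and 12.6 CPM against 52.1, 53.0 and 58.0 CPM (-2.35, adjusted p = 7.05e-05). ACSL5 was at 36.8, 34.7 and 33.3 CPM against 138, 154 and 152 CPM (-2.09, adjusted p = 1.61e-05, and -2.17 after GC correction), and was lower by 1.73 with IFNg. PLIN5, a lipid droplet coat protein, stood out in the other direction at 6.5, 7.45 and 8.11 CPM against 2.38, 2.20 and 2.54 CPM (1.60, adjusted p = 0.00285), and was higher by 2.03 with IFNg.

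Of 14 drug metabolism genes tested, 10 were lower with ABBV-075 (71.4%, background 19.4%) and none higher, with a median of -0.95, which was -0.84 after GC correction and -0.87 with IFNg. SULT2A1, which sulfates steroids and bile acids, was at 10.8, 9.46 and 11.7 CPM against 45.5, 41.4 and 39.9 CPM (-1.99, adjusted p = 0.000121, and -2.34 with IFNg). CYP4F3 (-1.77), the glucuronosyltransferase UGT2B7 (-1.33) and CYP4F11 (-1.27) were also lower. Reads that align to several members of these families are not counted. Of 27 amino acid and urea cycle genes, 19 were lower (70.4%) and 2 higher, with a median of -0.65, but after GC correction 14 were lower with a median of -0.41, and with IFNg 8 of 26 with a median of -0.12. MAT1A, the liver enzyme that makes S-adenosylmethionine, was lower by 1.75 (adjusted p = 0.000113), NAGS, which makes the activator of the urea cycle, by 1.85 (adjusted p = 0.00296), and the tyrosine-degrading FAH by 1.35 (adjusted p = 0.000407). SLC22A7 (-2.64), PCK1 (-1.96) and TTPA (-1.53), named after their values were seen, were lower in both settings, by 2.35, 1.88 and 1.87 with IFNg.

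**Figure D4:**
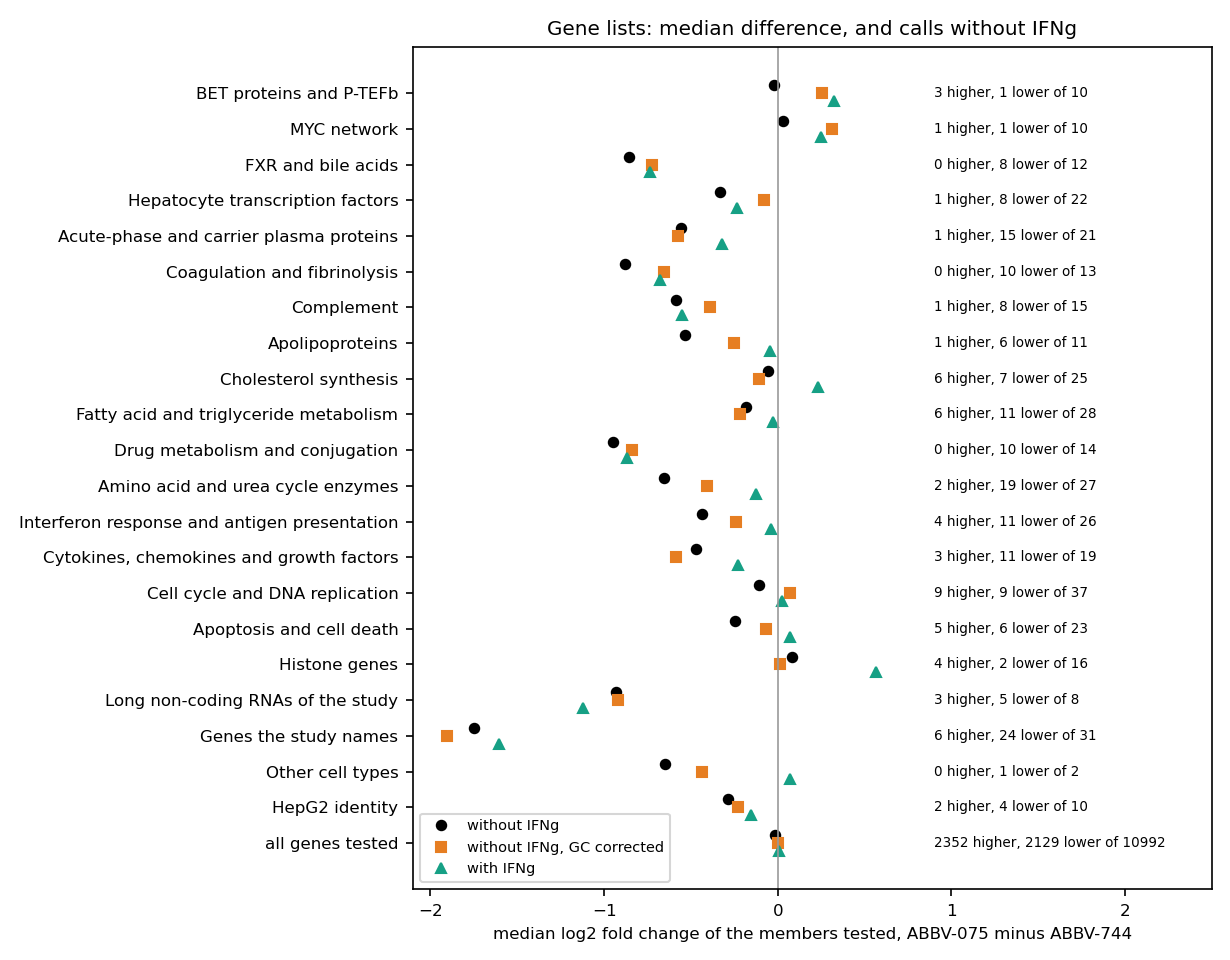
Median log2 fold change (ABBV-075 minus ABBV-744, horizontal axis) of the tested members of 21 gene lists and of all genes tested, without IFNg (black circles), without IFNg after GC correction (orange squares) and with IFNg (green triangles), with the number of genes higher and lower without IFNg at the right. The lists of bile acids, coagulation and drug metabolism had medians of -0.86, -0.88 and -0.95 without IFNg and lay below -0.6 in all 3 fits.

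Signalling and immune genes followed no single pattern. Cytokine and growth factor genes had 11 of 19 lower (57.9%) and 3 higher, with a median of -0.47, and after GC correction 11 were lower and 2 higher with a median of -0.59. LIF, a cytokine of the interleukin 6 family, was at 3.61, 3.73 and 4.5 CPM against 26.8, 33.2 and 18.7 CPM (-2.74, adjusted p = 0.000219), and the interleukin 1 receptor antagonist IL1RN was lower by 2.30 (adjusted p = 0.000403), both of them also with IFNg (-2.02 and -2.11). INHBC, named after its values were seen, was at 2.65, 2.01 and 2.40 CPM against 13.7, 15.7 and 14.3 CPM. Of 26 interferon and antigen presentation genes, 11 were lower (42.3%, background 19.4%) and 4 higher, but after GC correction 7 were lower and 5 higher (background 17.9% and 16.4%), and with IFNg 7 of 28 were lower and 5 higher, near the background of 17.0% and 16.7%. PSMB8, an immunoproteasome subunit (-1.56), the peptide transporter TAP2 (-0.97) and the receptor chain IFNGR2 (-1.04) were lower, with adjusted p of 0.00349, 0.00177 and 0.000754. JAK2, a kinase of the IFNg receptor, was higher (1.42, adjusted p = 0.00444), a call that ended with the GC correction (0.62, adjusted p = 0.0904).

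Counts in the cell cycle list, 9 higher and 9 lower of 37 (24.3% each), and in the apoptosis list, 5 higher (21.7%) and 6 lower (26.1%) of 23, were near the background. TOP2A, a topoisomerase of dividing cells, was at 956, 704 and 356 CPM with ABBV-075 and at 290, 157 and 214 CPM with ABBV-744 (1.60, adjusted p = 0.00383), fell to 0.92 after GC correction, and did not pass the test with IFNg (95% interval -0.16 to 0.16, adjusted p = 0.987). CFLAR, an inhibitor of death receptor signalling, was lower by 0.86 (adjusted p = 0.00127) and by 0.56 with IFNg. Among 16 histone genes, 4 were higher (25.0%) and 2 lower (12.5%) without IFNg, beside 21.4% and 19.4% of all genes. All 16 were higher with IFNg (background 16.7%), and the medians were 0.08 without and 0.57 with IFNg. The linker histone H1F0 was at 774, 737 and 767 CPM against 463, 493 and 466 CPM (0.67, adjusted p = 0.00157), and 1.09 with IFNg. Histone genes resemble each other closely, and reads that align to several of them are not counted. Of the long non-coding RNAs that the study discusses, 8 were tested, 3 higher (37.5%) and 5 lower (62.5%), beside 21.4% and 19.4% of all genes. After GC correction 3 were higher (background 16.4%) and 4 lower (background 17.9%). NEAT1, the scaffold of paraspeckles, was at 625, 878 and 708 CPM against 271, 247 and 229 CPM (1.55, adjusted p = 0.000151, and 1.43 with IFNg). Of the protein-coding genes that the study names, 31 were tested, 6 higher (19.4%, background 21.4%) and 24 lower (77.4%, background 19.4%). These genes and the long non-coding RNAs were chosen in the study on comparisons that included ABBV-075 against DMSO beside other inhibitors. They are therefore not independent evidence of a direction.

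Each compound was also set against the same 3 DMSO libraries, so these values are given side by side without a test between them. For ABBV-075, 2225 of 11244 genes (19.8%) were higher and 2199 (19.6%) lower, with 122 higher DE genes (1.09%) and 359 lower ones (3.19%). For ABBV-744, 979 of 11116 (8.81%) were higher and 1123 (10.1%) lower, with 10 (0.09%) and 21 (0.189%) DE genes. HEPACAM had log2 fold changes of -3.53 for ABBV-075 and -0.45 for ABBV-744, ABCC2 had -2.16 and -0.37, SULT2A1 had -2.87 and -0.85, and NEAT1 had 2.23 and 0.70, and all of these passed the test. In TXNIP the values were 2.61 and 0.65, and both passed. The GC trend was part of these comparisons too, with Spearman's correlations across genes of -0.34 for ABBV-075 and 0.59 for ABBV-744. After GC correction, 2427 genes (21.6%) were higher and 2647 (23.5%) lower for ABBV-075, with 99 and 330 DE genes. For ABBV-744 the corrected fit had 623 (5.6%) higher and 573 (5.15%) lower, with 5 and 15 DE genes.

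Whether the difference between the compounds changed with IFNg was tested as an interaction over 12 libraries and 11380 genes. It was more positive with IFNg in 1714 genes (15.1%) and more negative in 2311 (20.3%), but after GC correction in 443 (3.89%) and 404 (3.55%). Of the 242 higher DE genes, 201 changed with IFNg, or 75 after GC correction, and of the 179 lower ones 53, or 10. Both sets were chosen by their values without IFNg, which the interaction also uses, so a shift toward 0 is partly built in. These counts are therefore descriptions only, to be read beside the shares of all genes just given. Among the 5 genes with the smallest interaction p, PA2G4, a growth regulator that binds ribosomes, was at 76.3, 64.5 and 65.7 CPM against 206, 234 and 233 CPM without IFNg (-1.71, adjusted p = 6.66e-05) and differed by -0.22 with IFNg (adjusted p = 0.103), an interaction of 1.48 (adjusted p = 0.000605) that was 1.43 after GC correction. PXDC1 (-2.12 and -0.09), the heparan sulfate proteoglycan SDC1 (-1.46 and -0.23), angiotensinogen AGT (-1.30 and 0.00) and the glycoprotein BSG (-0.79 and 0.50) gave interactions that also passed after GC correction. NR1H4, HEXIM1, EFR3B, ABCC2, TXNIP, SESN3 and HEPACAM did not pass the interaction test, with adjusted p between 0.0547 and 0.991.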

How the data were processed

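The series holds 24 RNA sequencing libraries of HepG2 cells, and the 6 of ABBV-075 and ABBV-744 at 50 nM without IFNg were compared. The authors trimmed reads (Trimmomatic 0.33) after base calling with CASAVA 1.8.2, aligned them to hg38 with STAR 2.7.1 and used DESeq2, as named in the submitters' processing notes and the methods. The deposited values are the whole-number counts of uniquely aligned reads per gene, taken here from the stranded column that holds 98.4% to 98.5% of the assigned reads, so reads that align to several places are not counted. The annotation behind the counting is not given in the sources used here.

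Counts were normalized with TMM, filtered with filterByExpr and tested with glmQLFTest in edgeR 4.0.16 (R 4.3.3), with Benjamini-Hochberg adjustment over all genes tested. All adjusted p-values in the text are from this edgeR test unless another tool is named. SE is the log2 fold change divided by the root of the F statistic, and intervals are 95%. For the GC correction, a lowess curve (span 0.3) of the deviation of each library on the GC content of the longest transcript was entered as an offset, with GC known for 98.5% of genes tested. A group with at most 3 counts in every library was set to that floor, which covers counting error only. The depth of 3174722 to 4082506 counted reads limits precision for genes of a few CPM. The procedure was tested on simulated counts.

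Named genes were NR1H4 and HEXIM1, the 10 largest gains and 10 largest losses among DE genes whose groups were apart and whose mean log2 CPM was 1 or more, up to 4 members of each list with the largest change, and the 5 genes with the smallest interaction p. Genes beyond this rule (TXNIP, ARRDC4, THEMIS2, INHBC, PCK1, SLC22A7, TTPA, VAV3, NR0B2, BRD2, BRD3, HNF4A, CEBPA and the members of the sets shared by 3 fits) were chosen after their values were seen. Some genes that the rule would name are not reported here. The groups and gene lists were chosen with earlier results of these data known. Alternatives were DESeq2 1.42.0, another scaling, other filters, all 24 libraries in the fit, a replicate block, counts without strand, the GC correction and each library left out. A correction on transcript length was chosen after seeing the data.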

Additional observations from a re-analysis of the deposited data

Results flagged for a closer look

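The difference between ABBV-075 and ABBV-744 changed with IFNg in the genes listed here, by the interaction test in edgeR at an adjusted p of 0.05 or less, and each value is the log2 fold change with IFNg minus that without it. Where 2 values stand, the second is from the GC-corrected fit. The call held after GC correction in PHGDH (0.93, 0.62 corrected), TAP2 (1.17, 1.14 corrected), SERPINA1 (0.77, 0.38 corrected), PA2G4 (1.48, 1.43 corrected), PXDC1 (2.01, 1.5 corrected), SDC1 (1.22, 0.64 corrected), AGT (1.30, 0.98 corrected) and BSG (1.28, 0.66 corrected), which were more positive with IFNg, and in ZFYVE16 (-2.21, -1.24 corrected), BRCA2 (-2.25, -1.21 corrected), APOB (-0.95, -0.65 corrected), IDI1 (-1.05, -0.48 corrected), TOP2A (-1.61, -0.80 corrected) and VAV3 (-2.07, -1.81 corrected), which were more negative. It did not pass after GC correction in FUT6 (2.27), SLC51B (2.21), SMTNL2 (2.36), HEXIM2 (1.43), HSD3B7 (0.74), APOA5 (0.61), APOC3 (0.86), GPD1 (0.70), MAT1A (0.55), FAH (0.83), PSMB8 (0.90), IFNGR2 (0.56), HIST1H2BK (1.48), H1F0 (0.41), BRD3 (1.04) and CEBPA (0.63), which were more positive, or in KIF3A (-1.72), PNPLA8 (-1.33), ABCA5 (-1.51), AKAP5 (-2.47), USP53 (-1.67), CCNT2 (-1.30), ONECUT2 (-1.14), C1S (-0.66), SC5D (-1.11), STARD4 (-1.45), JAK2 (-1.85), CCNE2 (-1.40), RB1 (-1.07), BUB1 (-0.81), BIRC2 (-1.24) and FGB (-1.005), which were more negative. In VAV3, named after its values were seen, ABBV-075 gave lower levels than ABBV-744 both without IFNg (-1.78) and with it (-3.84). TAP2 was lower without IFNg (-0.97) and at 0.21 with it (adjusted p = 0.0532). BSG went from lower (-0.79) to higher (0.50). The values of SLC51B and SMTNL2 are not exact, because their ABBV-075 libraries without IFNg were at the floor of 3 counts. FUT6 had few counts in that group, and SMTNL2 was not tested in the comparison with IFNg. The GC trends of the libraries ran in opposite directions without and with IFNg, and their part in these changes was tested only through the correction.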

How the results depend on the processing

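Between the compounds, 242 higher genes became 47 with the GC correction, 46 with that correction and the replicate block, and 154 with the length correction. The 179 lower genes became 287 without a filter on low counts and 79 with at least 10 counts in every library. With IFNg the same filters gave 103 and 19 higher and 201 and 55 lower genes. For ABBV-075 against DMSO they gave 190 and 70 higher and 567 and 159 lower genes. For ABBV-744 against DMSO they gave 16 and 2 higher and 43 and 2 lower genes, DESeq2 gave 1 and 2, and the GC correction gave 5 higher genes, or 6 with the block. Interaction calls fell to 443 and 404 with the GC correction and were 517 and 484 with the block added. Leaving out 1 library gave 103 (ABBV-075 replicate 1) to 491 (ABBV-075 replicate 3) higher and 191 to 271 (ABBV-075 replicate 3) lower genes, with IFNg 47 to 70 (IFNg + ABBV-744 replicate 3) and 135 to 156, for the interaction 973 (IFNg + ABBV-075 replicate 3) to 2476 and 1591 to 2866 calls, for ABBV-075 against DMSO 95 to 230 (ABBV-075 replicate 3) and 373 to 460, and for ABBV-744 against DMSO 8 to 12 and 19 to 38 (ABBV-744 replicate 1). The cause was not tested. Signs turned in 3 genes that did not pass the test: with the GC correction, and with the block added, BRD2 was at 0.24 and 0.24 and CEBPA at 0.0995 and 0.0965, and without 1 library BRD2 ranged from -0.14 to 0.0636 (0.0090 without ABBV-075 replicate 2) and NR0B2 from -0.0079 to 0.24. The replicate block alone gave 219 higher and 186 lower genes. Same-numbered libraries had correlations of 0.34, -0.16 and -0.15. These use deviations from means of 3 libraries, so they cannot settle whether the numbers pair the libraries. Of 112 values of single genes, 99 kept their direction and their side of the threshold with the GC correction and 109 with DESeq2. Low counts limit the genes of a few CPM.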
